A study of Bos taurus with 12 samples.

Results

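The genes described here drive and time cell division: cyclins and their kinases, the ubiquitin machinery of anaphase, the spindle checkpoint, the spindle itself and the replication of DNA. A list of 53 gene symbols was matched to the deposited raw count table, which held 17983 distinct gene rows. A row was found for 52 of them, and MAD2L1 was not analysed here. Of the 52, 51 were abundant enough to be tested. The other was cyclin D1, CCND1. Where a symbol had several rows, the one with the largest total was taken.

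The samples were groups of 50 bovine (Bos taurus) cumulus-oocyte complexes, each an oocyte wrapped in granulosa-derived cumulus cells. They were matured in vitro in control medium (6 samples) or in medium with 3 µg/mL of polystyrene nanoplastics 50 nm in diameter (6 samples). They were prepared independently from 3 batches of bovine material. No source used here says which sample came from which batch, so differences between batches cannot be told apart from other variation. Poly(A) RNA of the pooled complexes was sequenced, with a total count per library of 15873865 to 20008464 in control and 14167578 to 18684140 in nanoplastics samples. Oocyte and cumulus RNA share each library, so fewer cells of a type and less RNA per cell cannot be told apart, nor can fewer transcripts and shorter poly(A) tails.

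Cyclin B bound to CDK1 forms the kinase that carries both mitotic cells and maturing oocytes into M phase. The anaphase-promoting complex then destroys cyclin B and securin, which frees separase to cut the cohesin between chromosomes. During maturation the oocyte resumes meiosis, divides once and halts at metaphase II under stored maternal mRNA, while cumulus cells, which divide as the follicle grows, turn to expansion of their matrix. The egg also stores replication proteins and mRNAs, which the embryo uses in its cleavages.

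Markers of both compartments were present. The summed level of 16 oocyte markers ran from 473 to 708 CPM (counts relative to the TMM-scaled library total) in control and from 420.3 to 630.2 CPM in nanoplastics libraries. That of 13 granulosa and cumulus markers ran from 17711 to 20858 CPM and from 18401 to 21957 CPM. The 8 leukocyte markers summed to 4.50 to 8.82 CPM in control and 5.64 to 14.9 CPM in nanoplastics libraries. Among them CD68 was at 3.04 to 6.56 CPM over all libraries, CSF1R reached 3.03 CPM in Nanoplastics 5 and PTPRC was at most 0.483 CPM. The 6 endothelial markers summed to 37.5 to 48.7 CPM in control and 38.9 to 52.7 CPM in nanoplastics libraries, most of it KDR. Over all libraries PECAM1 was at 0.769 to 3.04 CPM, VWF at 1.21 to 3.37 CPM and TEK at 2.59 to 5.49 CPM. CDH5 and EMCN had no count in any control library and reached 0.644 and 0.0561 CPM in nanoplastics libraries. The 8 theca and stromal markers summed to 358 to 549 CPM and 383 to 634 CPM, near the level of the oocyte markers. Most of it was LUM, at 234 to 433 CPM over all libraries, and PDGFRA, while CYP17A1 was at most 0.223 CPM. In this list COL1A2 reached 15.4 CPM in Nanoplastics 2 and 7.08 CPM in Nanoplastics 6. COL3A1 and COL6A3 were also highest in Nanoplastics 2, at 13.2 and 10.7 CPM. In the edgeR test described below, these 3 of 7 tested markers were higher with nanoplastics at an unadjusted p under 0.05, against 1.07% of all genes. Their adjusted p was 0.999 each. The part of these cells in the results was not tested.

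No cell cycle gene passed the test between control and nanoplastics samples. Log2 fold changes (nanoplastics minus control) ran from −0.31 for RRM2, which makes DNA precursors, to 0.24 for NDC80, a kinetochore protein. After RRM2, the lowest values were those of the helicase subunit MCM3 (−0.24) and of cyclin B1, CCNB1 (−0.21). Below NDC80, the highest were those of CDC25B (0.23), a phosphatase that activates cyclin-dependent kinases, and of UBE2C (0.18), a ubiquitin-conjugating enzyme of anaphase. The 95% interval of each included 0.

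With edgeR's quasi-likelihood test and Benjamini-Hochberg adjustment over 12311 genes, 0 of the 51 members passed an adjusted p of 0.05, against a background of 0% of all genes tested. At an unadjusted p under 0.05 there were 0 members, against 2.1% of all genes (1.03% lower and 1.07% higher). Leaving out 1 library at a time gave 0 to 10 such members, the 10 without Nanoplastics 3, where 3.58% of all genes passed, and 0 at an adjusted p of 0.05. DESeq2 called 0 members and had 1, CCNB1, at an unadjusted p under 0.05, and limma-voom called 0 and had 0. The 95% interval of the log2 fold change included 0 for all 51, and lay within 1.5-fold in either direction for 50, against 83.3% of all genes tested. For every member the CPM ranges of both groups overlapped, and 0.0731% of all genes had groups that did not.

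Negative log2 fold changes were found for 37 of 51 members (72.5%), against a background of 49.5%, and their median was −0.076, against 0.0013 over all genes tested. Libraries of 1 group lay farther apart than that. When each library was summarised by the median of its members' log2 deviations from the control mean, Nanoplastics 5 lay lowest at −0.21 and Control 1 highest at 0.14. Control 4 stood at −0.13, below Nanoplastics 1 and 2 at −0.12 and −0.11, and Nanoplastics 3 stood at 0.08, above every control library other than Control 1. Nanoplastics 5 held only 3 of 51 members above the median of the 12 libraries, and Control 1 held 41. The median log2 fold change was −0.040 without Control 1 and −0.036 without Nanoplastics 5. Single values moved as well when 1 library was left out. Among genes described only briefly below, CDK2 became −0.20 without Nanoplastics 3, CDC25C −0.26 without Nanoplastics 3, ESPL1 −0.19 without Nanoplastics 3, AURKB −0.18 without Nanoplastics 3, KIF20A −0.20 without Nanoplastics 3 and MCM5 −0.24 without Nanoplastics 3. Likewise WEE1 became −0.18 without Nanoplastics 2, FBXO5 −0.30 without Nanoplastics 1, INCENP −0.075 without Control 1 and MCM4 −0.094 without Control 1. CCNE1 became 0.019 without Nanoplastics 3, PLK4 −0.15 without Control 3 and CENPE −0.14 without Nanoplastics 4. The authors' deposited table, which lists 51 members, has CCNB1 alone under an unadjusted p of 0.05, with p = 0.0435 and a log2 fold change of −0.21, and no adjusted p there is below 0.999928.

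**Figure D1:**
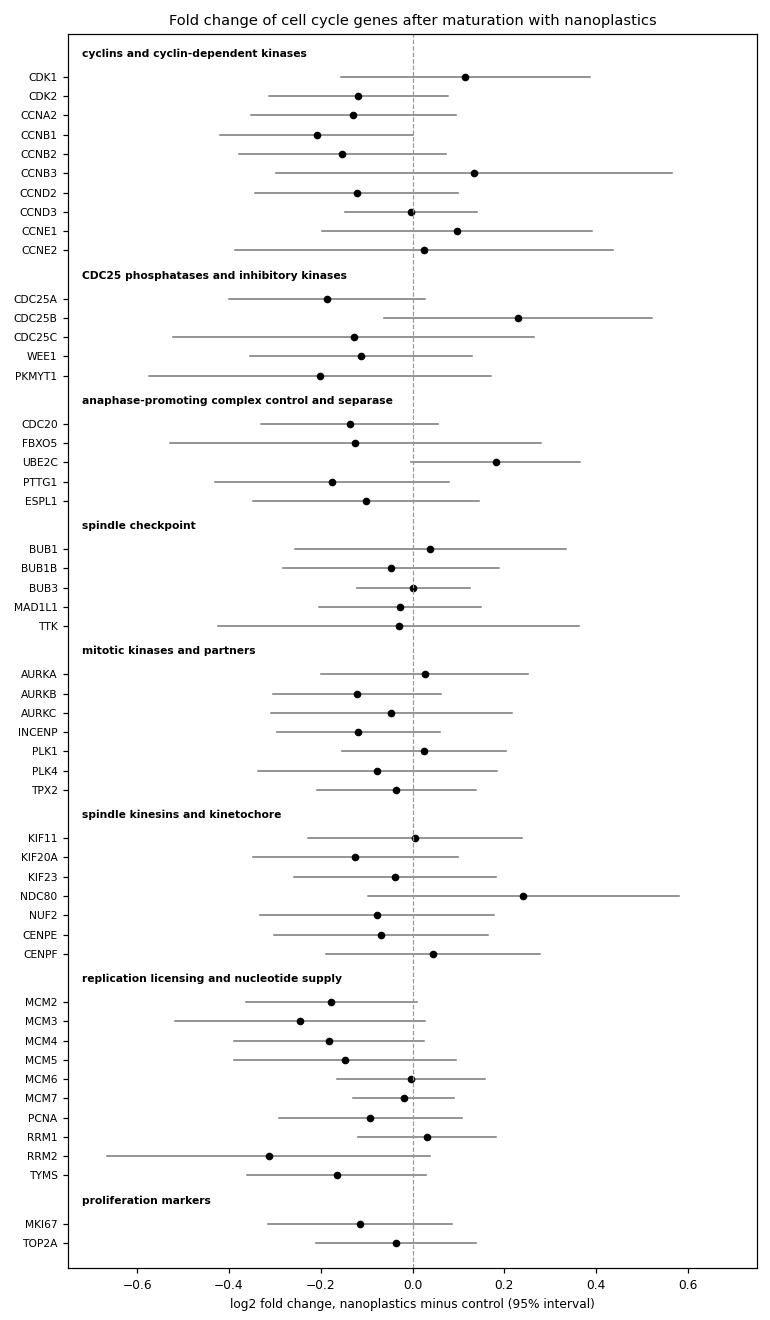
Log2 fold change of each of the 51 tested cell cycle genes (x axis, nanoplastics minus control; points are edgeR estimates and lines their 95% intervals), grouped by role. All intervals include 0, and 37 of the 51 points lie below 0.

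Among the cyclins and cyclin-dependent kinases, 6 of 10 tested genes had negative values (median −0.061). CCNB1, the activating partner of CDK1, came nearest to the threshold. CCNB1 ran from 68.7 to 102 CPM (median 78.5) in control and from 62.3 to 81.03 CPM (median 71.9) in nanoplastics libraries. Controls 1 and 5 stood apart at the top, at 102 and 96.2 CPM, and the other control libraries lay within the nanoplastics range. Its log2 fold change was −0.21 (95% interval −0.42 to 0.0016), with unadjusted p = 0.0515 and adjusted p = 0.999. CDK1 ran from 5.75 to 10.3 CPM (median 8.78) in control and from 7.68 to 10.01 CPM (median 9.54) in nanoplastics libraries. Control 4 was the lowest, and 5 of 6 nanoplastics libraries lay above the control median. Its log2 fold change was 0.11 (95% interval −0.16 to 0.39), and 0.023 without Control 4.

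The mitotic cyclin CCNA2, which also acts in S phase, ran from 27.4 to 41.9 CPM (median 31.6) in control and from 25.7 to 34.9 CPM (median 29.7) in nanoplastics libraries, with a log2 fold change of −0.13, and −0.048 without Control 1. CCNB2, a second B-type cyclin, had −0.15, and CDK2, the partner of cyclins E and A, had −0.12. CCNB3, which in mouse oocytes is needed for the first meiotic anaphase, had the widest range of all members, from 4.29 CPM in Nanoplastics 6 to 11.7 CPM in Nanoplastics 1, and had 0.13 (95% interval −0.30 to 0.57). Its value was −0.059 without Nanoplastics 1. The E-type cyclins, which drive entry into S phase, had 0.096 for CCNE1 and 0.025 for CCNE2.

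The D-type cyclins, which link growth signals to the cell cycle, differed widely in counts. CCND2, the D cyclin that FSH induces in mouse granulosa cells, had the largest total count of any member, 40001 over the 12 libraries. CCND2 ran from 182 to 226 CPM (median 196) in control and from 146 to 236 CPM (median 173) in nanoplastics libraries. Nanoplastics 1 was lowest and Nanoplastics 4 highest, so that the nanoplastics libraries spanned the whole control range. The log2 fold change was −0.12 (95% interval −0.34 to 0.10), and −0.21 without Nanoplastics 4. CCND3 varied little, from 27.8 to 30.5 CPM (median 29.4) in control and from 24.97 to 31.6 CPM (median 29.9) in nanoplastics libraries, with a value of −0.0033. CCND1 had 4 counts in all, 2 in Control 5 and 1 each in Nanoplastics 2 and 6. The other 9 libraries had 0, where 3 counts, the limit that a count of 0 allows, would be 0.150 to 0.212 CPM without TMM scaling (counting error only). No fold change of CCND1 is given, and the gene span overlaps that of LTO1 in the RefSeq gene table.

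Enzymes that set the phosphate brake on cyclin-dependent kinases had values on both sides of 0. CDC25B, the phosphatase that mouse oocytes need to resume meiosis, was the only one with a positive value. CDC25B ran from 7.02 to 10.7 CPM (median 8.21) in control and from 7.73 to 12.9 CPM (median 10.1) in nanoplastics libraries. Nanoplastics 1 was the highest library and Control 4 the lowest, and the log2 fold change was 0.23 (95% interval −0.063 to 0.52), or 0.15 without Nanoplastics 1. CDC25A, which acts from S phase on, ran from 17.95 to 25.6 CPM (median 20.01) in control and from 16.4 to 20.8 CPM (median 17.9) in nanoplastics libraries and had −0.19 (95% interval −0.40 to 0.028), or −0.12 without Control 3. CDC25C had −0.13. The kinases that add the phosphates had −0.11 for WEE1 and −0.20 for PKMYT1, the latter with Control 1 at 12.8 CPM and every other library at 8.90 CPM or less. PKMYT1 was −0.030 without Control 1. WEE2, the oocyte relative of WEE1, is no member but one of the oocyte markers. It had −0.23 (95% interval −0.45 to −0.015), with unadjusted p = 0.0377 and adjusted p = 0.999.

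In the control of anaphase, UBE2C, the ubiquitin-conjugating enzyme of the anaphase-promoting complex, was the only gene of 5 with a positive value. UBE2C ran from 26.7 to 31.8 CPM (median 27.2) in control and from 27.8 to 38.6 CPM (median 31.1) in nanoplastics libraries. Each of the 6 nanoplastics libraries exceeded the control median, as in 3.32% of all genes tested, while Control 6 lay above 3 of them. The log2 fold change was 0.18 (95% interval −0.0040 to 0.37), with unadjusted p = 0.0546 and adjusted p = 0.999.

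PTTG1, the securin that restrains separase, had the largest total count of these genes. PTTG1 ran from 77.1 to 114 CPM (median 86.1) in control and from 63.1 to 98.95 CPM (median 82.4) in nanoplastics libraries. Controls 1 and 5 were highest and Nanoplastics 1 lowest, and the log2 fold change was −0.17 (95% interval −0.43 to 0.080), or −0.11 without Nanoplastics 1. ESPL1, separase, ran from 54.5 to 80.7 CPM (median 60.7) in control and from 52.00 to 77.6 CPM (median 56.6) in nanoplastics libraries and had −0.10. CDC20, which activates the complex, had −0.14, with Control 1 at 41.6 CPM and the rest at 34.9 CPM or less, and −0.065 without Control 1. FBXO5, the inhibitor EMI1, was low in counts and had −0.13, with Nanoplastics 1 highest at 4.53 CPM and Nanoplastics 6 lowest at 2.04 CPM.

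Spindle checkpoint genes, which hold anaphase until chromosomes are attached, had log2 fold changes of −0.047 to 0.039. BUB3 was steady, from 101 to 117 CPM (median 107) in control and from 101 to 117 CPM (median 107) in nanoplastics libraries, with a value of 0.0015 (95% interval −0.12 to 0.12). BUB1 had 0.039, MAD1L1 had −0.027 and TTK, the kinase that starts checkpoint signalling, had −0.030. BUB1B ran from 11.3 to 18.7 CPM (median 17.9) in control and from 14.7 to 17.8 CPM (median 15.9) in nanoplastics libraries. For BUB1B, the checkpoint pseudokinase BubR1, each of the 6 nanoplastics libraries was under the control median, as in 2.91% of all genes tested. Control 4 was lower still, at 11.3 CPM, and the log2 fold change was −0.047 (95% interval −0.28 to 0.19), or −0.14 without Control 4.

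The mitotic kinases and their partners had values of −0.12 to 0.026, 5 of 7 negative. AURKA, the kinase of spindle poles, ran from 58.6 to 77.6 CPM (median 63.7) in control and from 54.1 to 87.3 CPM (median 68.2) in nanoplastics libraries and had 0.026 (95% interval −0.20 to 0.25). Of its relatives, AURKB, the kinase of the chromosomal passenger complex in dividing somatic cells, had −0.12, and AURKC, its germ-cell counterpart, had −0.046. AURKB spanned a narrow control range of 19.2 to 20.7 CPM, and 4 of 6 nanoplastics libraries lay below that range and 2 above it. INCENP, the scaffold of that complex, had −0.12. PLK1, which acts from M phase entry to exit, had 0.025, PLK4, which starts centriole duplication, had −0.076, and TPX2, an activator of AURKA, had −0.036.

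Of the spindle motors and kinetochore proteins, 4 of 7 had negative values. NDC80, which ties kinetochores to microtubules, had the highest log2 fold change of all members at 0.24 (95% interval −0.098 to 0.58). NDC80 ran from 9.63 to 16.2 CPM (median 11.2) in control and from 10.9 to 21.1 CPM (median 13.2) in nanoplastics libraries. Nanoplastics 1 stood apart at the top and Control 6 was the next highest, so that the other nanoplastics libraries lay inside the control range. Without Nanoplastics 1 the value was 0.094. NUF2, its direct partner, did not share this pattern and had −0.077, with Nanoplastics 1 at 4.12 CPM against a control range of 4.18 to 5.35 CPM. CENPF and CENPE, both at the outer kinetochore, had 0.044 and −0.069. KIF11, the motor that pushes spindle poles apart, had 0.0048, and the cytokinesis motors KIF20A and KIF23 had −0.12 and −0.039.

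The replication genes among the members were negative in 9 of 10 cases, against 49.5% of all genes tested, with a median of −0.16. Further lists of replication genes had medians of −0.011 for 17 genes of origin firing and −0.040 for 22 enzymes of the replication fork. Within the MCM2 to MCM7 helicase, whose subunits form a ring, the values differed. MCM3 ran from 13.2 to 17.2 CPM (median 16.3) in control and from 9.36 to 15.9 CPM (median 13.1) in nanoplastics libraries. Each nanoplastics library was again under the control median, although Controls 2 and 5 lay below Nanoplastics 3, 4 and 6. The log2 fold change was −0.24 (95% interval −0.52 to 0.028), and −0.16 without Nanoplastics 1. MCM2 had −0.18, MCM4 had −0.18 and MCM5 had −0.15, while MCM6 had −0.0036 and MCM7 had −0.020. MCM7 had the smallest SD within groups of all members, from 128 to 141 CPM (median 131) in control and from 119.7 to 139 CPM (median 131) in nanoplastics libraries.

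RRM2, the small subunit of ribonucleotide reductase that cells make in S phase, had the lowest log2 fold change of all members at −0.31 (95% interval −0.67 to 0.038). RRM2 ran from 7.75 to 14.6 CPM (median 10.2) in control and from 6.48 to 10.7 CPM (median 8.31) in nanoplastics libraries. Control 1 was the highest library and Nanoplastics 1 and 5 the lowest, with overlap in between. The value was −0.20 without Control 1. Its large partner RRM1, which is more stable through the cycle, had 0.031. TYMS, which makes thymidylate, had −0.17, and PCNA, the sliding clamp of DNA polymerases, had −0.092 (95% interval −0.29 to 0.11), from 50.3 to 67.2 CPM (median 55.8) in control and from 46.4 to 63.6 CPM (median 53.2) in nanoplastics libraries. The smallest unadjusted p among the replication members was 0.0612, for MCM2, with adjusted p = 0.999.

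The general proliferation markers had values near those of the other members. MKI67 ran from 17.1 to 22.2 CPM (median 20.1) in control and from 15.2 to 21.6 CPM (median 17.8) in nanoplastics libraries. MKI67, the Ki-67 antigen of cycling cells, was highest in Control 6 and lowest in Nanoplastics 6, with a log2 fold change of −0.12 (95% interval −0.32 to 0.085). TOP2A, the topoisomerase that untangles chromosomes, averaged 61.3 ± 7.67 CPM over the control libraries and 59.7 ± 4.44 CPM over those with nanoplastics (SD, n = 6 each), with −0.037 (95% interval −0.21 to 0.14). Control 6 was its highest library at 74.2 CPM and Control 4 its lowest at 50.7 CPM, so both extremes were untreated.

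**Figure D2:**
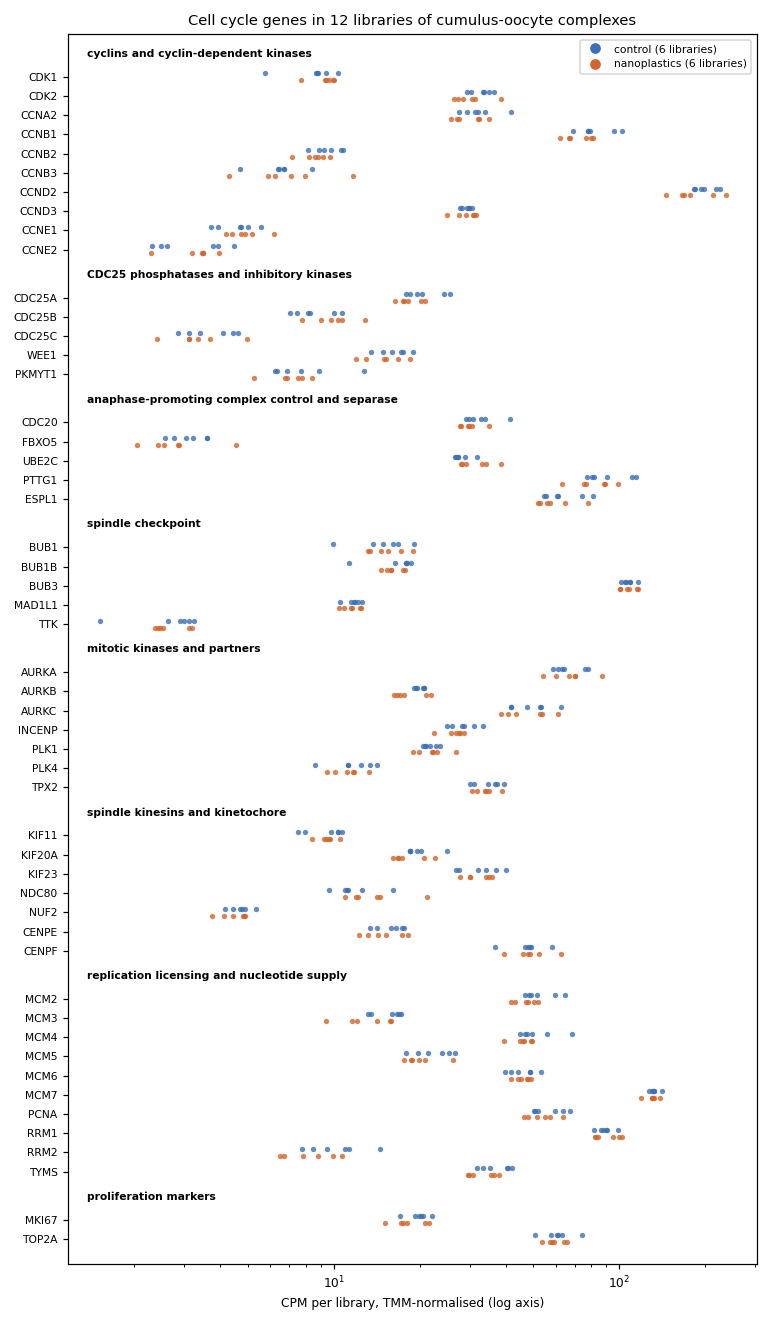
CPM of each tested gene in each of the 12 libraries (x axis, log scale), control in blue and nanoplastics in orange, grouped by role. The groups overlap for all 51 genes. CPM is not corrected for transcript length, so positions of different genes are not levels to compare.

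**Figure D3:**
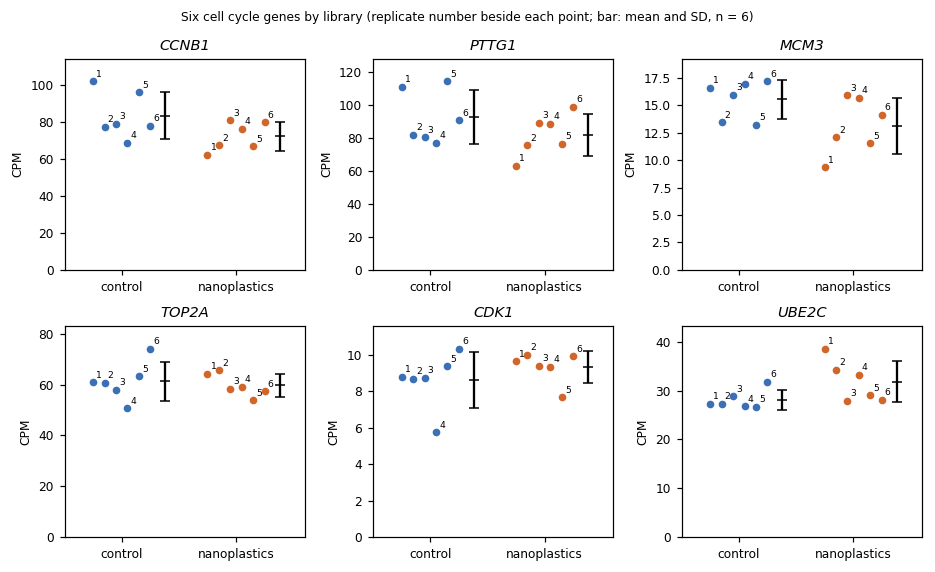
CPM in each library (y axis, from 0) for 6 of the genes, with the replicate number beside each point and the mean and SD at the right of each group (n = 6). Controls 1 and 5 are high for CCNB1 and PTTG1, Control 4 is low for CDK1 and TOP2A, and Nanoplastics 1 is high for UBE2C.

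The members also varied together between libraries of both groups, in more than one pattern. In the first, members varied with the summed oocyte markers. Over the 12 libraries, 15 of 51 members had a Pearson r over 0.7 with the log2 of the summed oocyte markers, against 4.72% of all genes tested. They were CDK2, CCNA2, CCNB1, CDC25C, CDC20, ESPL1, BUB3, AURKA, AURKB, KIF20A, MCM2, MCM4, MCM5, RRM2 and TYMS. The median r over the members was 0.49, against −0.011 over all genes. An r under −0.7 was found for 0 of 51 members, against 5.32% of all genes. These values share 1 set of library scaling factors, and genes are not independent replicates. Without Control 1, the library with most oocyte marker RNA at 708 CPM, 8 members had an r over 0.7.

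The sum does not stand for every marker. WEE2, BTG4, BMP15, DPPA3 and ZP2 made up 80.4% of it, and 0 of these 5 exceeded the control median in Nanoplastics 1, 2 or 5. In Nanoplastics 1, however, 8 of the 16 markers exceeded the control median, among them GDF9 at 14.5 CPM, the highest of the 12 libraries, and ZP3 at 9.60 CPM against a control median of 2.004. The count was 7 of 16 in Nanoplastics 2 and 2 of 16 in Nanoplastics 5.

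Some members also varied against the granulosa and cumulus markers. An r under −0.7 with their log2 sum was found for 5 of 51 members (CCNB1, PTTG1, AURKB, AURKC and PCNA), against 5.21% of all genes tested. An r over 0.7 was found for 1, CCNB3, against 6.65%. Of those 5, only CCNB1 and AURKB were among the 15 members that varied with the oocyte markers. The median r over the members was −0.11, against −0.0090 over all genes. VCAN and SERPINE2, at means of 10070 and 6499 CPM over the control libraries, made up most of the sum. With this sum r was −0.83 for PTTG1, −0.79 for PCNA and −0.74 for CCNB1, but −0.18 for ESPL1. Which compartment the relations follow was not tested.

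Further pairs, 14 in all, were chosen for their values after these had been seen, so r and rho are given as descriptions without a test. ESPL1 and the summed oocyte markers had r = 0.90 and rho = 0.79. Leaving out the pair of libraries farthest from the median of ESPL1 gave r = 0.79. CCNB1 had r = 0.79 and rho = 0.88 with the oocyte markers, and r = 0.61 without Control 1 and Nanoplastics 1. CCNA2 had r = 0.76 and rho = 0.78, and r = 0.52 without the same libraries. For PTTG1 the values were r = 0.65 and rho = 0.70, with r = 0.69 without Control 5 and Nanoplastics 1. For PCNA they were r = 0.60 and rho = 0.68, with r = 0.71 without Control 5 and Nanoplastics 6.

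CCNB1 and PTTG1, both substrates of the anaphase-promoting complex as proteins, had the r farthest from 0 of the 14. They had r = 0.94 and rho = 0.91, and r = 0.91 without Control 1 and Nanoplastics 1. Both ran against VEGFA, an oxygen-responsive growth factor gene that varied from 6.76 to 10.99 on the log2 CPM scale between these libraries. CCNB1 and VEGFA had r = −0.87 and rho = −0.85, and r = −0.78 without those libraries. PTTG1 and VEGFA had r = −0.88 and rho = −0.85, and r = −0.80 without Control 5 and Nanoplastics 1. AURKC and VEGFA had r = −0.88 and rho = −0.92, and r = −0.79 without the same pair. In all, 10 of 51 members had an r under −0.7 with VEGFA, against 6.01% of all genes tested. An r over 0.7 with VEGFA was found for 0 of 51, against 9.03%. Nanoplastics 1, 2 and 5 had the highest VEGFA and the lowest summed oocyte markers of all libraries, at 440, 435 and 420 CPM in that order, and the markers' part in these relations was not tested.

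A second pattern had little relation to the oocyte markers. TOP2A had r over 0.7 with CDK1, WEE1, BUB1 and CENPE, which is 4 of the 50 other members, against 0.496% of all genes tested. Without Nanoplastics 5 the count was 2. TOP2A and BUB1 had r = 0.82 and rho = 0.75, and r = 0.61 without Controls 4 and 6. TOP2A and CDK1 had r = 0.78 and rho = 0.69, and r = 0.66 without the same libraries. With the oocyte markers, TOP2A had r = −0.18 and rho = −0.18. CDK1 likewise had r = 0.012 and rho = −0.063 with them. Without Controls 4 and 6 the r of TOP2A was −0.14, and without Control 4 and Nanoplastics 5 that of CDK1 was −0.63.

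Partners in a complex fell on different sides for CCNB1 and CDK1. CCNB1 had an r of 0.79 with the oocyte markers and 0.15 with TOP2A, while its kinase CDK1 had 0.012 and 0.78. ESPL1 and PTTG1, enzyme and inhibitor, had 0.90 and 0.65 with the oocyte markers. They lay farther apart with VEGFA, at −0.54 and −0.88, and with the granulosa and cumulus markers, at −0.18 and −0.83. With the oocyte markers UBE2C had −0.57 and CDC25B had −0.52. With VEGFA, UBE2C had r = 0.59 and rho = 0.69, and r = 0.27 without Nanoplastics 1 and 2. CCND2 and MCM7 followed neither pattern closely, with 0.46 and 0.16 for the oocyte markers and −0.31 and −0.11 for TOP2A.

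**Figure D4:**
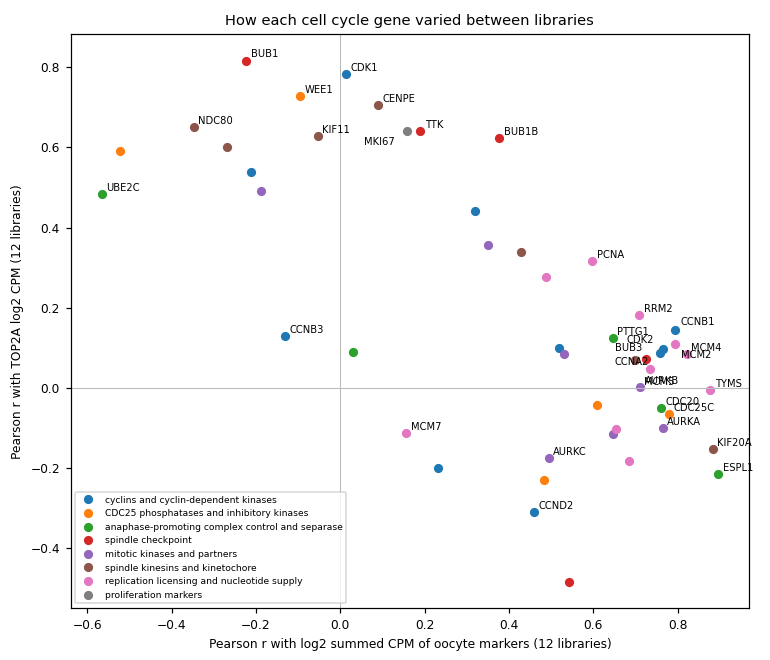
Each point is a tested gene other than TOP2A, placed by its Pearson r over 12 libraries with the log2 summed CPM of oocyte markers (x axis) and with the log2 CPM of TOP2A (y axis), coloured by role. ESPL1, KIF20A and TYMS lie far to the right, and BUB1, CDK1 and WEE1 lie at the top.

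**Figure D5:**
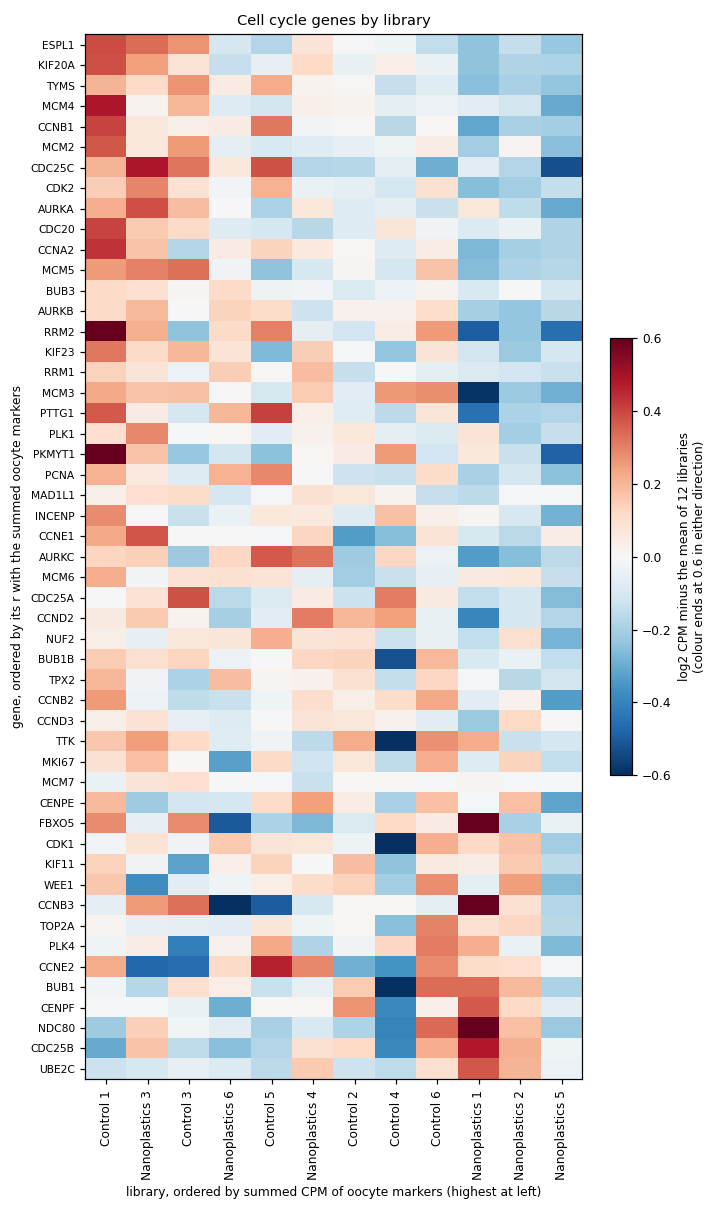
Log2 CPM of each tested gene minus its mean over the 12 libraries (colour), with libraries ordered by their summed oocyte markers and genes by their r with that sum. Genes at the top are mostly red in Control 1 and Nanoplastics 3 and mostly blue in Nanoplastics 1, 2 and 5, and Control 4 is blue for CDK1, TTK, BUB1 and BUB1B.

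A separate list of 12 pairs, centred on MKI67, GDF9 and VEGFA, gave no relation that passed adjustment over the 12. MKI67 and TOP2A had r = 0.64 (permutation p = 0.0244, adjusted p = 0.147) and rho = 0.73 (permutation p = 0.0089, adjusted p = 0.0539), and r = 0.61 (permutation p = 0.0556) without Control 4 and Nanoplastics 6. MKI67 had r = 0.36 with CDK1, 0.34 with CCNB1, 0.22 with PCNA, 0.17 with CCND2 and −0.094 with VEGFA. The permutation p-values of those 5 ran from 0.257 to 0.767. Without Control 4 and Nanoplastics 6 their r was 0.59, 0.45, 0.60, 0.17 and −0.27 in that order. AURKA and the oocyte growth factor GDF9 had r = 0.65 (permutation p = 0.0227, adjusted p = 0.147) and rho = 0.73 (permutation p = 0.00899, adjusted p = 0.0539), and r = 0.71 (permutation p = 0.0195) without Nanoplastics 3 and 5. GDF9 had r = −0.089 with CCNB1, −0.36 with PTTG1, 0.23 with BUB1B and 0.069 with MKI67. Each of these changed sign without the pair of libraries farthest from the median of the member, to 0.15, 0.26, −0.17 and −0.17. CCND2 and VEGFA had r = −0.39, and −0.11 without Nanoplastics 1 and 4. The adjusted p-values of r over the 12 pairs ran from 0.147 to 0.832.

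The rest of the cell cycle machinery held no call either. Of 111 further genes in 7 lists, 110 were tested and 0 passed an adjusted p of 0.05. At an unadjusted p under 0.05 there was 1 of the 110, against 2.1% of all genes tested. It was MCM10, a replication initiation factor, which had −0.19 (95% interval −0.37 to −0.015), with unadjusted p = 0.0354 and adjusted p = 0.999. MCM10 averaged 14.4 ± 1.24 CPM over the control libraries and 12.6 ± 0.755 CPM over those with nanoplastics (SD, n = 6 each). Of the 110, 68 had negative values (61.8%, median −0.034), against 49.5% of all genes.

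Inhibitors of cyclin-dependent kinases, which hold cells out of the cycle, had positive values in 6 of 7 tested genes, with a median of 0.15. Of all genes tested, 49.5% had negative values. CDKN1A, p21, had 0.23 (95% interval −0.16 to 0.62), and 0.088 without Nanoplastics 1. CDKN1C ran from 5.39 to 13.1 CPM (median 6.68) in control and from 3.46 to 34.98 CPM (median 10.5) in nanoplastics libraries. For this gene, p57, Nanoplastics 1 stood far above the rest, and Nanoplastics 3 and 4 were the lowest libraries of all. The log2 fold change was 0.81 (95% interval −0.16 to 1.78), and 0.24 without Nanoplastics 1. CDKN2B, p15, had 0.43 and also peaked in Nanoplastics 1, at 26.5 CPM, with 0.20 without Nanoplastics 1. CDKN1A, CDKN1B and CDKN2D were highest in that library as well, while CDKN2C was highest in Control 5 and CDKN2A in Control 1. CDKN2D had 0.15, with 0.042 without Nanoplastics 1 and 0.28 without Nanoplastics 4.

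In the RB and E2F family, which gates entry into S phase, 10 of 13 genes were negative, with RBL2 at −0.054, RB1 at −0.12 and E2F1 at −0.18. Subunits of the anaphase-promoting complex were negative in 10 of 15 cases, with ANAPC1 at 0.11 and the activator FZR1 at 0.15. Genes of origin firing were negative in 10 of 17 (GINS4 at −0.0042), enzymes of the replication fork in 14 of 22 (LIG1 at −0.077), cohesin and condensin genes in 12 of 18 (RAD21 at 0.070) and other kinetochore and passenger genes in 11 of 18 (CDCA8 at −0.10). Each gene in parentheses has the highest mean CPM of its list, without correction for length.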

How the data were processed

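Raw counts, whole numbers per gene, were deposited by the authors for 12 libraries. The submitters' processing notes list STAR 2.5.4b, Trim Galore 0.4.5 and DESeq2 but assign them no step. The sources used here do not name the counting tool, strand setting, genome build or annotation. In the RefSeq gene table of ARS-UCD2.0, 11 of 52 members overlap another protein-coding gene (among them CCNA2, AURKC, KIF20A and TYMS), so their counts are less certain. Of 18057 gene rows, 74 exact copies were dropped. Genes were kept by filterByExpr (minimum count 10, total 15), which left 12311, scaled by TMM and tested by quasi-likelihood in edgeR 4.0.16 (two-sided glmQLFTest after glmQLFit, Benjamini-Hochberg, threshold 0.05) under R 4.3.3. Log2 CPM had a prior count of 2. The fit's common coefficient of variation was 0.146. Procedures were tested on simulated data.

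The members, gene lists and pairs were chosen with earlier results of these data known. Every member could be named. P-values of the 12 listed correlations came from 100000 permutations (Python 3.11.15, numpy 2.4.6). The design text calls the samples independent. Counts of any 2 libraries of a group differed beyond sampling noise (chi-square over its degrees of freedom at least 5.64). That comparison covers counting noise only and cannot show that samples from the same batch are independent. Each library was counted as a sample. P-values measure only the spread between these samples. The deposited log2 table was not used. From the authors' deposited comparison table, p-values, adjusted p-values and log2 fold changes were copied, and its 6 columns of group values were not used. Alternatives were RLE scaling, no count filter, DESeq2 1.42.0, limma-voom (limma 3.58.1), the replicate number as a block, summed rows of one symbol and each library left out.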

Additional observations from a re-analysis of the deposited data

Results flagged for a closer look

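Each library was compared with the other 5 of its group by dividing the gap between the most extreme library and its nearest neighbour by the range of the group. This was done for 51 members and for the summed oocyte and granulosa markers, 106 groups of values in all, and set 5 apart (4.72%), where chance sets apart about 1 in 20, or 5.3 here.

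Control 4 was set apart from the other control libraries at the low end for 3 genes. Its log2 CPM was 2.55 for CDK1, against 3.14 to 3.39 in the others, 3.52 for BUB1B, against 4.04 to 4.23, and 0.70 for TTK, against 1.45 to 1.75. Control 1 was highest for KIF20A at 4.65, against 4.22 to 4.35. Nanoplastics 5 was lowest for CDK1 at 2.96, against 3.24 to 3.34 in the other nanoplastics libraries.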

How the results depend on the processing

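Counts past an adjusted p of 0.05 were 0 for all genes, for the members and for the other cell cycle lists under every alternative run. Members at an unadjusted p under 0.05 numbered 0 in the TMM fit reported, 1 with RLE scaling and 1 with DESeq2 (CCNB1 in both), and 2 with the replicate number as a block (CDC25A and MCM3), where 2.09%, 2.06% and 2.34% of all genes passed. With libraries left out in turn they ranged from 0 to 10, with 10 without Nanoplastics 3 (3.58% of all genes), 5 without Control 2 (3.26%), 4 without Control 6 (2.39%) and 3 without Control 4 (2.44%), Control 5 (1.87%), Nanoplastics 4 (3.9%) or Nanoplastics 6 (3.62%). The count of negative members ranged from 35 to 41 and their median log2 fold change from −0.11 to −0.036. Same-numbered control and nanoplastics libraries did not deviate together (r of −0.26 to 0.43, over 0.1 for 2 of 6 pairs, and 1 of 6 control libraries correlated best with its own number), so the numbers are not taken as pairs.

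Of 51 members, 35 kept their sign in every setting run, 30 of them negative. The other 16 changed sign when some library was left out, within −0.059 to 0.24 for CCNB3, −0.031 to 0.041 for CCND3, −0.056 to 0.13 for CCNE2, −0.055 to 0.12 for BUB1, −0.026 to 0.023 for BUB3, −0.057 to 0.0034 for MAD1L1, −0.15 to 0.023 for TTK, −0.064 to 0.079 for AURKA, −0.13 to 0.026 for AURKC, −0.041 to 0.061 for PLK1, −0.053 to 0.039 for KIF11, −0.095 to 0.022 for KIF23, −0.030 to 0.10 for CENPF, −0.049 to 0.037 for MCM6, −0.010 to 0.058 for RRM1 and −0.085 to 0.025 for TOP2A. BUB3 was −0.0011 with RLE scaling and −0.00094 with DESeq2, and MCM6 was 0.00079 with limma-voom and 0.0012 with the block. The causes were not tested.

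Alternatives to the correlations were RLE scaling, centring on each group and a prior count of 0.5. The r of MKI67 and VEGFA was 0.018 after centring. Centring also gave r = 0.59 for PTTG1 and 0.56 for PCNA with the oocyte markers, and 0.54 for UBE2C with VEGFA. With libraries left out, the members with r over 0.7 ranged from 8 to 17 for the oocyte markers and from 2 to 6 for TOP2A. Left-out libraries for correlations and for genes of the other lists, the 14 pairs and the counts of r were added after the data were seen. Without Control 1, r with the oocyte markers was 0.54 for PTTG1, 0.63 for CCNA2 and 0.53 for PCNA, and that of UBE2C with VEGFA was 0.53. The widest intervals were those of CCNB3, CCNE2, FBXO5, TTK and CDC25C, and all of these but CCNB3 had only 561 to 744 counts over the 12 libraries.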
